A study of Mus musculus with 47 samples.

Results

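The genes described here are 36 named components of ribosome assembly: factors that work in the nucleolus, and subunits of RNA polymerase I. They were chosen by name from an annotation of the array, as probe sets that carry exactly 1 of these gene symbols. The rule itself uses no measured level, although the set was put together with earlier results of these data known. Of the 36, 35 had such a probe set, out of 18194 genes with one on the array. Mrto4, a factor of the large subunit, was listed only on a probe set of several symbols and has no value here. The 35 genes held 76 probe sets, and the brightest of each gene stood for it. All 35 passed the filter on dim genes that left 13949 genes for testing, which asked for at least 1 group mean above the median of all log2 values (3.89). Grouped by role, the 35 comprise 2 subunits of RNA polymerase I, 3 box C/D and 3 box H/ACA proteins, 6 abundant nucleolar proteins, 9 factors of the small subunit and 12 of the large subunit.

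Ribosomes are built in the nucleolus, where RNA polymerase I transcribes a long precursor RNA that is modified, cut and folded onto ribosomal proteins. Box C/D particles guide methylation and box H/ACA particles guide pseudouridylation of that RNA, and separate sets of assembly factors then mature the small and the large subunit. The transcription factor Myc is known to drive many of these genes through E-box sequences, and cells that grow and divide fast, such as early red cell precursors, are known for a high output of ribosomes.

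Each of the 47 Affymetrix arrays held RNA of 2000 purified cells from the bone marrow of adult C57Bl6 mice, for which the labels name no treatment. The labels name 17 populations by abbreviation and give neither the surface markers of the sort nor the animals' sex. There were 5 arrays of LMPP, 4 of MkE and of PreB, and 3 each of ETP, GMP, MkP, PreCFUE, CFUE and ProE. For NKmature, CD4, IgM+SP, ProB, CLP, GM, STHSC and LTHSC there were 2 each. Replicates are labelled biological, and whether cells of several animals were pooled is not given. RNA was amplified before labelling, and the values are relative within an array. In such bulk samples fewer cells of a type and less RNA per cell cannot be told apart.

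Several labels matched a defining transcript. Hlf, a stem cell factor, was highest in LTHSC (mean 11.04, log2 intensity). Klf1, the erythroid master regulator, stood at 11.30 to 12.08 in MkE, PreCFUE, CFUE and ProE, Pf4 of platelet granules at 12.19 in MkP, and Mpo of myeloid granules at 13.82 in GMP. Hba-a1, an alpha globin gene, stood at 2.75 to 3.39 in all 17 groups, ProE included. The red cell genes Alas2 and Slc4a1 were highest in ProE (8.74 and 11.90). They also stood at 8.42 and 7.16 in CD4, 7.50 and 5.61 in ProB and 6.45 and 6.02 in PreB. In MkE, PreCFUE and CFUE both were low (3.12 to 3.55). The part of red cell transcripts in the levels of these groups was not tested. The ProB arrays stood apart from their label: the NK cell genes Gzma (11.55) and Klrd1 (11.60) were far above the B cell regulators Ebf1 (5.70) and Pax5 (3.82). Transcripts of late neutrophils, as a mean of 6 genes, were highest in IgM+SP (10.33 and 9.66) and NKmature (9.87 and 9.94) and on some arrays of ProB (4.56 and 9.49) and PreB (3.75, 5.77, 9.73 and 10.43). They stood at 7.44, 7.06 and 7.38 in GMP, 6.21 and 7.67 in GM, 7.42, 6.04, 6.37 and 6.47 in MkE and 7.24, 4.40 and 5.95 in MkP, and on LMPP at 3.89, 3.97, 3.83, 7.87 and 7.76. By Xist and the Y-linked Eif2s3y, 21 arrays carried only Xist, 19 only Eif2s3y and 7 both. The class changed within LMPP, ETP and PreB and was otherwise the same for all arrays of a group. Of 47 arrays, 46 correlated best with an array of their own group.

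E-boxes near the starts of these genes are shown first because Myc is the factor to which their levels are set below. RefSeq promoter windows (300 bases, GRCm38.p6) were found for 31 of the 36 genes, and the E-box CACGTG, which reads the same on both strands, was present in those of 6 genes. That is 19.4% of these genes, against 8.09% of all 27025 RefSeq genes with a window, 10.2% of the 14453 on the array and 9.8% of the 6074 genes whose windows have a like GC content. Each is printed in 30 bases on the gene's own strand, with the E-box in capitals.
Mybbp1a: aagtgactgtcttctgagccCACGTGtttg
Nle1: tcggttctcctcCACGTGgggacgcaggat
Nop2: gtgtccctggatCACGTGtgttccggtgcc
Pes1: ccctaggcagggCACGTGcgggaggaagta
Tsr1: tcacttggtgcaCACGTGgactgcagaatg
Wdr43: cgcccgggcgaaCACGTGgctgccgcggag
The Nop2 stretch lies at chr6:125131811-125131840 on the plus strand, and its E-box begins 60 bases before the transcription start. In the other 5 genes the E-box lies just inside the transcript. It begins at base 3 of Pes1 (chr11:3963965-3963994, plus strand), base 18 of Wdr43 (chr17:71616220-71616249, plus) and base 24 of Nle1 (chr11:82908355-82908384, minus). In Tsr1 it begins at base 25 (chr11:74898092-74898121, plus) and in Mybbp1a at base 41 (chr11:72441347-72441376, plus). A match of letters is a description and shows no binding. No match in the other windows says only that these letters are not there.

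The ribosome biogenesis genes were highest in the erythroid groups and lowest in ProB, PreB and CLP. Their mean was 9.54 ± 0.07 (SD, n = 3) in CFUE, 9.51 ± 0.16 (n = 3) in PreCFUE and 9.25 ± 0.02 (n = 3) in ProE. The PreCFUE and CFUE arrays overlapped, and the ProE arrays lay below both. The mean was 7.87 ± 0.16 (n = 2) in CLP, 7.68 ± 0.07 (n = 4) in PreB and 7.58 ± 0.06 (n = 2) in ProB. In PreCFUE and CFUE all 35 genes stood above their own mean over the 17 groups, in PreB 0 did, and in ProB 3 did. Between these ends came GMP (9.05), GM (8.95) and MkE (8.95), whose arrays overlapped. Below them stood LTHSC (8.59), ETP (8.49), IgM+SP (8.40), STHSC (8.40), LMPP (8.39), CD4 (8.32), MkP (8.31) and NKmature (8.19). The LTHSC arrays were at 8.38 and 8.80 and spanned all those of ETP and IgM+SP, so that much of the order among the 8 is within the spread of arrays. The CLP arrays (7.76 and 7.99) lay below every array of those groups and above every PreB and ProB array, while PreB (7.58 to 7.72) and ProB (7.54 to 7.63) overlapped. CLP also had the lowest median over all genes tested (5.53, against 6.13 in GM, the highest). The difference between CLP and PreB changed with the scaling of the arrays, as given below.

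**Figure D1:**
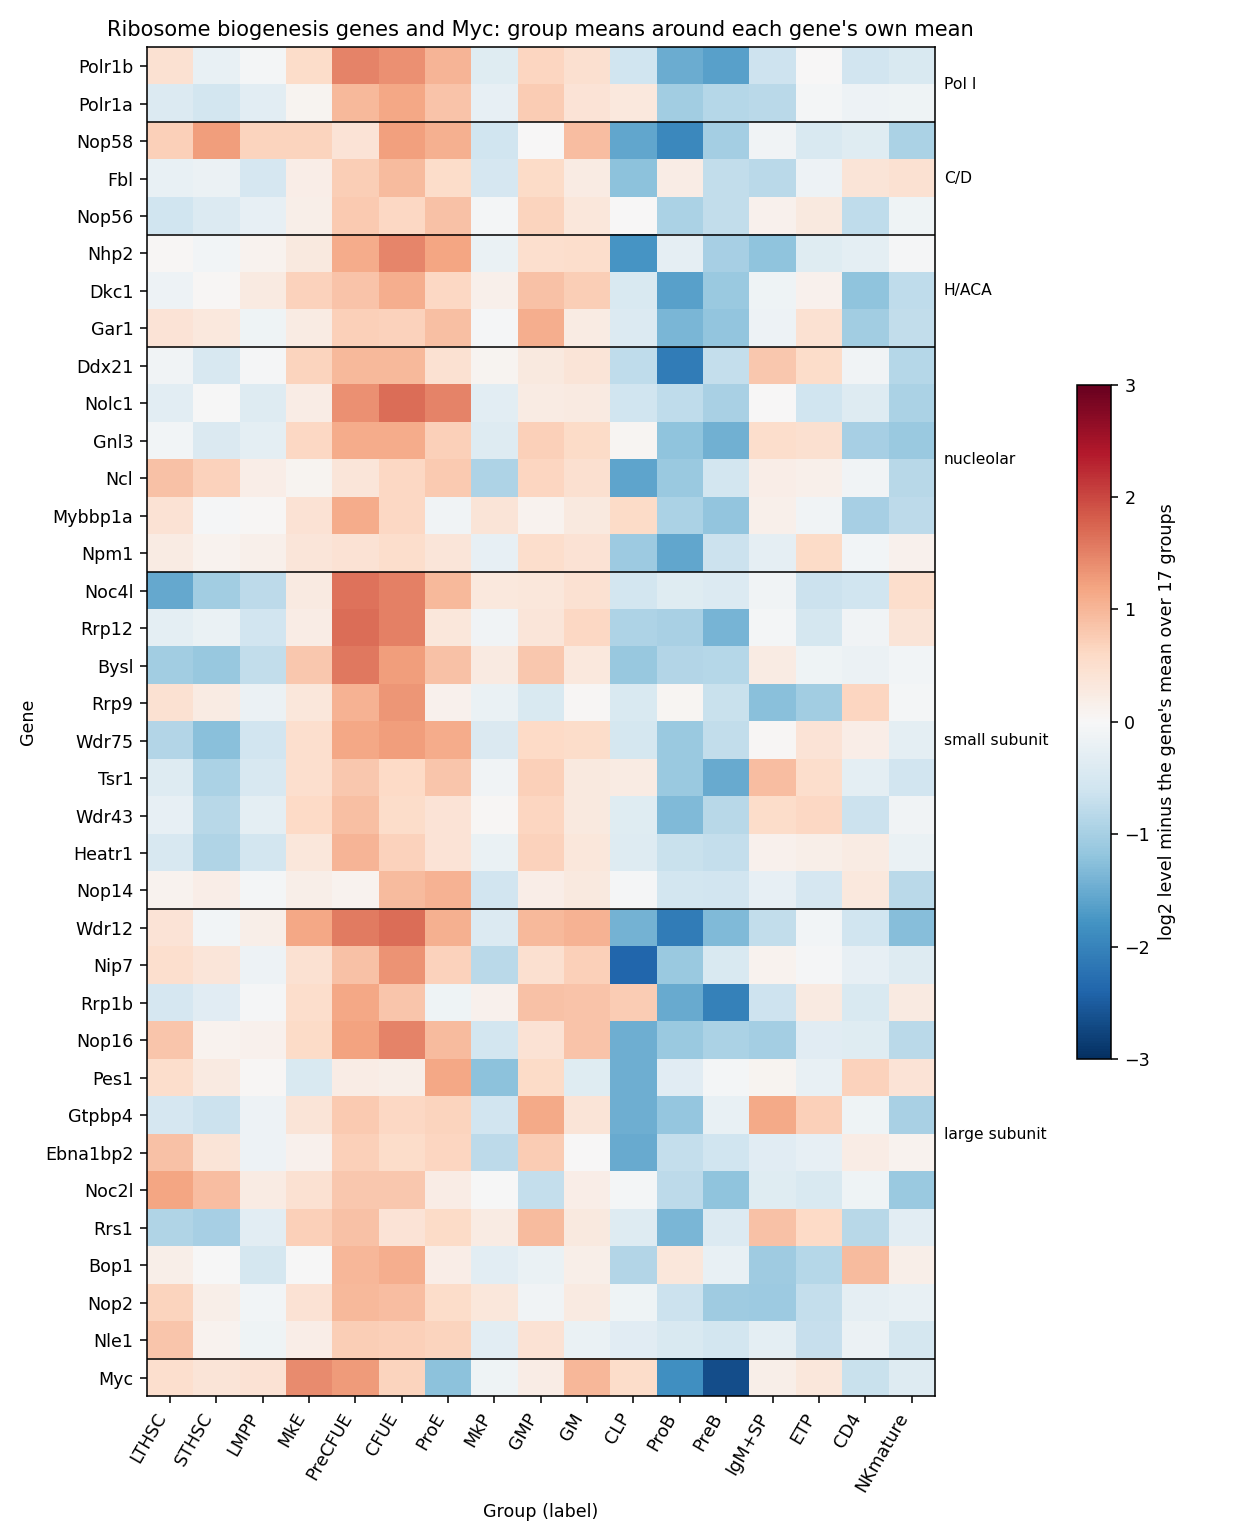
Group means of the 35 ribosome biogenesis genes (rows, by role) and of Myc in the 17 groups (columns), as log2 level minus the gene's own mean over the groups, red above and blue below. PreCFUE and CFUE are red in all 35 rows, PreB is blue in all 35, and Myc in the bottom row is blue in ProE, where 33 of the 35 genes are red.

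Single genes followed this order to different degrees. The highest group was CFUE for 12 genes, PreCFUE for 10, LTHSC for 4, ProE and GMP for 3 each, and STHSC, IgM+SP and ETP for 1 each. The lowest group was ProB for 10, CLP and PreB for 8 each, STHSC and IgM+SP for 3 each, and LTHSC, ETP and NKmature for 1 each. By limma's moderated F-test all 35 differed among the groups, as did 90.3% of all genes tested. The distance from lowest to highest group mean had a median of 2.50 (log2) over the 35 genes and of 2.11 over all genes tested, and it was at least 2 for 31 of the 35.

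RNA polymerase I was represented by its pair of largest subunits, which form the catalytic core. Polr1a ran from 6.19 in ProB to 8.38 in CFUE, and Polr1b from 5.32 in PreB to 8.45 in PreCFUE. Their levels correlated at r = 0.859 over the 17 group means. Polr1b was also the gene most like the rest of the set, with r = 0.966 to the mean of the other 34.

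The box C/D proteins are the methyltransferase Fbl and its scaffold partners Nop56 and Nop58. Fbl ran from 8.42 in CLP to 10.59 in CFUE, Nop56 from 9.43 in ProB to 11.25 in ProE and Nop58 from 6.37 in ProB to 9.55 in STHSC. Although the proteins work in 1 particle, their pairs correlated only at 0.401 to 0.473. The box H/ACA proteins Dkc1 (the pseudouridine synthase, from 8.34 in ProB to 11.07 in CFUE), Gar1 (from 8.43 in ProB to 10.89 in GMP) and Nhp2 (from 8.39 in CLP to 11.61 in CFUE) varied more alike. Dkc1 and Gar1 correlated at 0.923, and Nhp2 at 0.66 with Dkc1 and 0.623 with Gar1. The points of these correlations share arrays, and no test was made of them.

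Among the nucleolar proteins, the helicase Ddx21 had the widest range, from 6.34 in ProB to 9.40 in PreCFUE. Nolc1, which accompanies small nucleolar particles, ran from 7.49 in PreB to 10.13 in CFUE, and Gnl3 (nucleostemin, a GTP-binding protein) from 8.46 in PreB to 11.03 in CFUE. Mybbp1a ran from 8.87 in PreB to 11.18 in PreCFUE. The abundant proteins Ncl (nucleolin) and Npm1 (nucleophosmin) had their highest means outside the erythroid groups, but the arrays overlapped. Ncl ran from 9.70 in CLP to 12.16 in LTHSC, where it read 11.86 and 12.45, against 12.07, 12.02 and 12.13 in ProE. Npm1 ran from 10.51 in ProB to 12.63 in ETP. It read 12.60, 12.59 and 12.69 in ETP and 12.68, 12.70 and 12.38 in CFUE. Ncl and Npm1 correlated at 0.791 with each other.

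Of the small subunit factors, Noc4l ran from 7.20 in LTHSC to 10.37 in PreCFUE, Rrp12 from 4.30 in PreB to 7.38 in PreCFUE, and Bysl, which binds late precursors, from 5.99 in STHSC to 8.72 in PreCFUE. Wdr75 (from 7.26 in STHSC to 9.76 in CFUE), Wdr43 (from 7.55 in ProB to 9.79 in PreCFUE) and Heatr1 (from 7.09 in STHSC to 9.02 in PreCFUE) belong to the complex that binds the nascent precursor RNA. The U3 particle protein Rrp9 ran from 5.84 in IgM+SP to 8.41 in CFUE, Nop14 from 5.43 in NKmature to 7.28 in ProE, and Tsr1, a factor of late small subunit maturation, from 9.33 in PreB to 11.78 in IgM+SP. Noc4l, Bysl, Wdr75 and Heatr1 thus had their lowest group mean in the stem cell groups LTHSC or STHSC, unlike the other genes of the set. Only for Noc4l did the arrays of that group lie below all others. Bysl read 5.89 and 6.09 in STHSC, within the CLP arrays (6.49 and 5.52). Heatr1 read 7.21 and 6.96 in STHSC and overlapped with PreB (7.27, 7.61, 7.14 and 7.08). The STHSC arrays of Wdr75 overlapped with those of ProB (7.76 and 7.03). For these genes the low point was not separate from lymphoid groups.

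The large subunit factors held 3 of the 6 widest ranges of the whole set. Wdr12 ran from 6.13 in ProB to 9.91 in CFUE, Nip7 from 6.30 in CLP to 10.05 in CFUE, Rrp1b from 5.76 in PreB to 8.96 in PreCFUE and Nop16 from 5.23 in CLP to 8.19 in CFUE. The GTPase Gtpbp4 ran from 7.63 in CLP to 10.24 in GMP, Ebna1bp2 from 6.90 in CLP to 9.31 in LTHSC and Noc2l from 6.96 in PreB to 9.35 in LTHSC. Rrs1, which handles the 5S particle, ran from 9.07 in ProB to 11.40 in GMP, the RNA methyltransferase Nop2 from 6.16 in IgM+SP to 8.23 in PreCFUE, and Nle1 from 5.13 in ETP to 6.65 in LTHSC. Pes1 (from 6.36 in CLP to 8.98 in ProE) and Bop1 (from 6.26 in IgM+SP to 8.43 in CFUE) form a complex with Wdr12, yet the pairs of these genes correlated only at 0.345 to 0.443. Pes1 was the gene least like the rest of the set (r = 0.382), and Bop1 came next (0.430).

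Over all 595 pairs the median correlation of group means was 0.622, with a range from -0.245 to 0.958. The first principal component of the 35 genes held 64.0% of their variance over the groups. The median correlation of a gene with the mean of the other 34 was 0.796.

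The 6 genes of widest range show the pattern array by array. Wdr12 stood at 10.35, 9.68 and 9.30 in PreCFUE, 9.94, 9.93 and 9.87 in CFUE, 9.24, 9.32 and 9.32 in ProE and 9.10, 9.40, 9.27 and 9.79 in MkE. In GMP it stood at 9.21, 9.25 and 9.16 and in GM at 9.20 and 9.34, against 7.85, 8.21 and 7.43 in MkP. It was 8.38 and 8.89 in LTHSC, 8.12 and 8.18 in STHSC, 8.38, 8.22, 8.42, 8.42 and 8.56 in LMPP and 8.12, 8.14 and 8.21 in ETP. These 12 arrays lay below every erythroid, MkE, GMP and GM array and overlapped with MkP. The lymphoid levels were 6.996 and 6.63 in CLP, 6.06 and 6.21 in ProB, 7.10, 7.17, 6.87 and 6.44 in PreB and 7.72 and 7.24 in IgM+SP. CD4 gave 7.63 and 7.62 and NKmature 6.90 and 6.99. Every ProB array was below every array of the other 16 groups.

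Nip7, which acts late in maturing the large subunit RNA, had its lowest values in CLP alone. The CLP arrays read 6.34 and 6.27, more than 1 log2 unit below the next array of any group (7.43 in ProB, whose other array read 7.75). MkP followed with 7.80, 8.26 and 7.57, and PreB with 7.98, 8.34, 8.59 and 8.01. At the upper end stood CFUE (9.97, 10.27 and 9.92), PreCFUE (10.32, 9.23 and 9.21), ProE (9.61, 9.25 and 9.28) and GM (9.55 and 9.27). GMP (9.30, 9.25 and 8.97), MkE (8.80, 9.49, 8.87 and 9.47), LTHSC (9.06 and 9.33) and STHSC (8.98 and 9.14) came next, of which STHSC did not overlap with any of the first 4. IgM+SP gave 8.68 and 8.94, ETP 8.71, 8.63 and 8.66, CD4 8.54 and 8.33, NKmature 8.30 and 8.34 and LMPP 8.93, 8.96, 8.26, 8.21 and 8.37. In LMPP the first and second arrays, of the Eif2s3y class, were above the other 3, which carried both transcripts. A second, dimmer probe set of Nip7 did not follow this order (r = -0.290 with the one used).

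Nhp2, of the box H/ACA particle, was highest in the erythroid groups. It read 11.59, 11.61 and 11.63 in CFUE, 11.46, 11.33 and 11.04 in PreCFUE and 11.24, 11.27 and 11.46 in ProE. GMP (10.88, 10.70 and 10.35), GM (10.75 and 10.60) and MkE (10.36, 10.52, 10.34 and 10.51) came next. All erythroid arrays from PreCFUE on exceeded all others. LTHSC (9.89 and 10.497), STHSC (10.16 and 9.97), LMPP (10.46, 10.29, 10.03, 10.31 and 10.23) and MkP (9.99, 10.21 and 9.68) overlapped with each other, as did ETP (9.76, 9.91 and 9.66) and CD4 (9.82 and 9.91), with NKmature at 10.14 and 10.09. ProB, at 10.10 and 9.64, was not low for this gene. The low values were those of PreB (9.67, 9.46, 8.36 and 9.15), IgM+SP (9.20 and 8.67) and CLP (8.69 and 8.09).

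Rrp1b, a nucleolar partner of protein phosphatase 1, separated CLP from PreB and IgM+SP. It read 8.44 and 8.67 in CLP, 5.88, 5.66, 5.39 and 6.12 in PreB and 6.87 and 7.47 in IgM+SP. The arrays labelled ProB, which carry the NK cell genes given above, read 6.42 and 6.14. It was high in PreCFUE (8.84, 9.10 and 8.95) and CFUE (8.76, 8.72 and 8.44) and lower in ProE (7.54, 7.70 and 7.74). The ProE arrays were thus about 1 log2 unit below the CFUE arrays, with no overlap. GMP (8.83, 8.69 and 8.49), GM (8.62 and 8.69) and MkE (8.27, 8.13, 8.68 and 8.24) resembled CLP. MkP gave 8.18, 8.15 and 7.47, ETP 8.29, 7.98 and 7.94 and NKmature 7.98 and 8.15. The remaining arrays read 6.92 and 7.65 in LTHSC, 7.44 and 7.46 in STHSC, 7.07, 7.71, 8.24, 7.87 and 7.91 in LMPP and 7.51 and 7.19 in CD4.

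Nop58 had the largest spread between arrays of 1 group among these 6 genes. PreCFUE gave 9.79, 7.87 and 8.46, MkE 8.58, 8.80, 8.86 and 9.61, LMPP 9.64, 9.72, 8.31, 8.58 and 8.52 and CD4 7.32 and 8.56. Its highest group was STHSC (9.56 and 9.54), beside CFUE (9.17, 9.91 and 9.52), ProE (9.37, 9.21 and 9.496), GM (9.13 and 9.33) and LTHSC (8.82 and 9.18). Each of the latter 3 and STHSC overlapped with CFUE. The low values lay in ProB (6.47 and 6.27) and CLP (6.98 and 6.47), followed by PreB (7.54, 6.59, 7.67 and 7.31) and NKmature (7.36 and 7.32). MkP gave 7.31, 8.11 and 7.64, ETP 7.78, 7.78 and 7.94, IgM+SP 8.24 and 8.16 and GMP 8.46, 8.19 and 8.26.

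Noc4l had its low point in the stem cell groups. It was lowest in LTHSC (7.24 and 7.16) and STHSC (7.68 and 7.71), followed by LMPP (7.81, 7.71, 8.68, 7.64 and 7.99). It was highest in PreCFUE (10.30, 10.39 and 10.42), CFUE (10.44, 10.03 and 10.32) and ProE (9.60, 9.81 and 9.76). Every LTHSC array was below all arrays of the other groups, and every erythroid array from PreCFUE on was above them. MkE (9.07, 8.99, 9.34 and 8.70), MkP (9.20, 9.17 and 8.84), GMP (9.19, 9.11 and 8.94), GM (9.27 and 9.15) and NKmature (9.31 and 9.23) formed a middle band. The lymphoid arrays read 8.32 and 8.09 in CLP, 9.02 and 7.75 in ProB, 8.26, 8.01, 8.41 and 8.63 in PreB and 8.38 and 8.93 in IgM+SP. ETP gave 8.04, 8.10 and 8.17 and CD4 8.40 and 7.90.

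**Figure D2:**
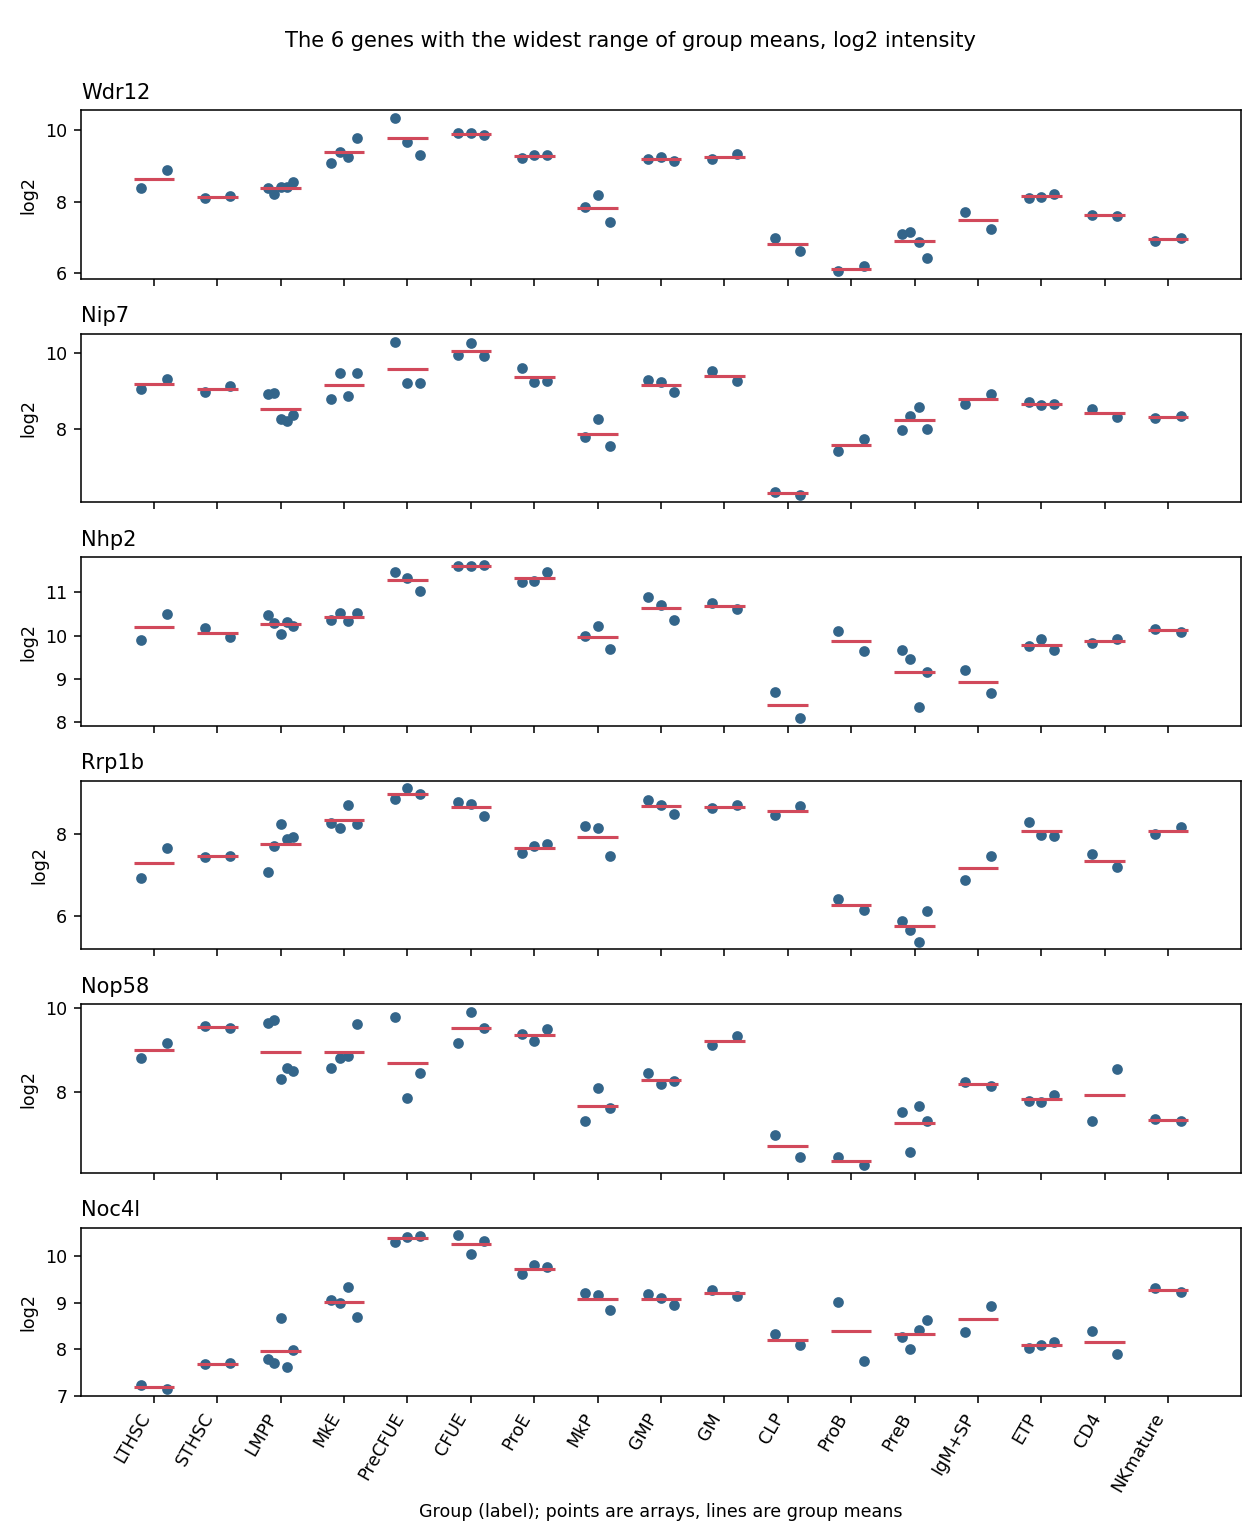
Log2 intensity of the 6 genes with the widest range of group means on each array (points) of the 17 groups, with group means as lines. CLP is far below the other groups for Nip7, PreB is lowest for Rrp1b, and LTHSC is lowest for Noc4l.

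At the other end, Nop56 and Nle1 had the narrowest ranges. Nop56 read 11.17, 11.34 and 11.23 in ProE, 11.22, 11.07 and 11.16 in PreCFUE, 10.97, 10.76 and 11.26 in CFUE and 11.20, 11.12 and 10.81 in GMP. It read 10.49, 10.58, 10.48 and 10.63 in MkE, 10.72 and 10.71 in GM, 10.34, 10.25 and 10.37 in MkP and 10.45 and 10.31 in CLP. The stem cell arrays gave 9.92 and 9.63 in LTHSC, 10.22 and 9.71 in STHSC and 10.45, 9.96, 9.62, 10.20 and 10.38 in LMPP. CLP was therefore not low for this gene. The lymphoid arrays gave 10.62, 10.95 and 10.45 in ETP, 9.54 and 9.69 in CD4, 10.54 and 10.46 in IgM+SP and 10.28 and 10.22 in NKmature. PreB read 9.61, 9.13, 9.80 and 10.01 and ProB 9.98 and 8.88, and the ProB arrays lay about 1 log2 unit apart. Nle1, a partner of the ATPase that remodels large subunit precursors, was the dimmest of these 8 genes on average. LTHSC read 6.32 and 6.98, STHSC 5.58 and 6.26, LMPP 5.88, 5.99, 5.24, 5.80 and 5.56 and MkE 5.92, 5.91, 6.64 and 5.55. The erythroid arrays gave 6.66, 6.75 and 6.22 in PreCFUE, 6.84, 6.76 and 6.01 in CFUE and 6.39, 6.55 and 6.505 in ProE. These overlapped with LTHSC and with GMP (6.04, 6.31 and 6.36). MkP gave 5.39, 6.19 and 4.89, GM 5.63 and 5.57, CLP 5.51 and 5.43 and ProB 5.07 and 5.63. PreB gave 5.36, 5.55, 5.39 and 4.72, IgM+SP 5.56 and 5.47 and ETP 5.21, 5.05 and 5.13. CD4 gave 5.98 and 5.29 and NKmature 5.15 and 5.42, and most groups overlapped with most others.

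The second and further probe sets of these genes gave a partial check on the brightest. There were 41, of which 37 passed the same filter. Over these 37, the correlation with the brightest over the group means had a median of 0.588. It was over 0.5 for 22 and fell as low as -0.290.

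Myc itself ranged over 4.08 log2 units of group means. It read 9.38, 9.48, 9.85 and 9.46 in MkE, 9.38, 9.22 and 9.60 in PreCFUE, 9.05 and 9.19 in GM and 8.86, 8.82 and 8.68 in CFUE. CLP gave 8.24 and 9.12, LTHSC 8.30 and 8.95, STHSC 8.13 and 8.87 and LMPP 8.84, 9.22, 7.61, 8.49 and 8.58. ETP gave 8.43, 8.28 and 8.72, GMP 8.60, 8.37 and 8.09, IgM+SP 8.43 and 8.15 and MkP 7.71, 8.22 and 8.04. The lowest of all these arrays read 7.61 (in LMPP), and many of these groups overlapped. NKmature (7.54 and 7.91) overlapped with LMPP and MkP, and CD4 (7.44 and 7.46) lay below them. ProE (6.79, 6.90 and 6.998), ProB (6.09 and 6.47) and PreB (5.35, 5.45, 5.31 and 5.73) were lowest and did not overlap with any other group.

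Mycn, the paralog of Myc, had another pattern. It was high in ETP (11.69, 10.97 and 11.40), MkP (10.61, 10.75 and 10.10), LTHSC (9.52 and 11.10) and MkE (9.27, 9.39, 10.36 and 9.20). STHSC gave 7.67 and 8.85, LMPP 7.29, 7.22, 7.91, 8.99 and 8.55, GM 7.98 and 8.03 and CLP 8.16 and 7.56. In PreCFUE (4.98, 4.86 and 4.82), CFUE (4.93, 4.92 and 4.94) and ProE (5.09, 5.41 and 5.25) it was low, although the ribosome biogenesis genes were highest there. GMP gave 4.99, 5.20 and 5.10, ProB 4.64 and 4.87, PreB 5.64, 6.18, 6.02 and 6.30 and IgM+SP 5.22 and 5.498. CD4 gave 4.68 and 4.70 and NKmature 4.91 and 4.98. Over the 17 group means the correlation of Mycn with the mean of the 35 genes was -0.101.

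**Figure D3:**
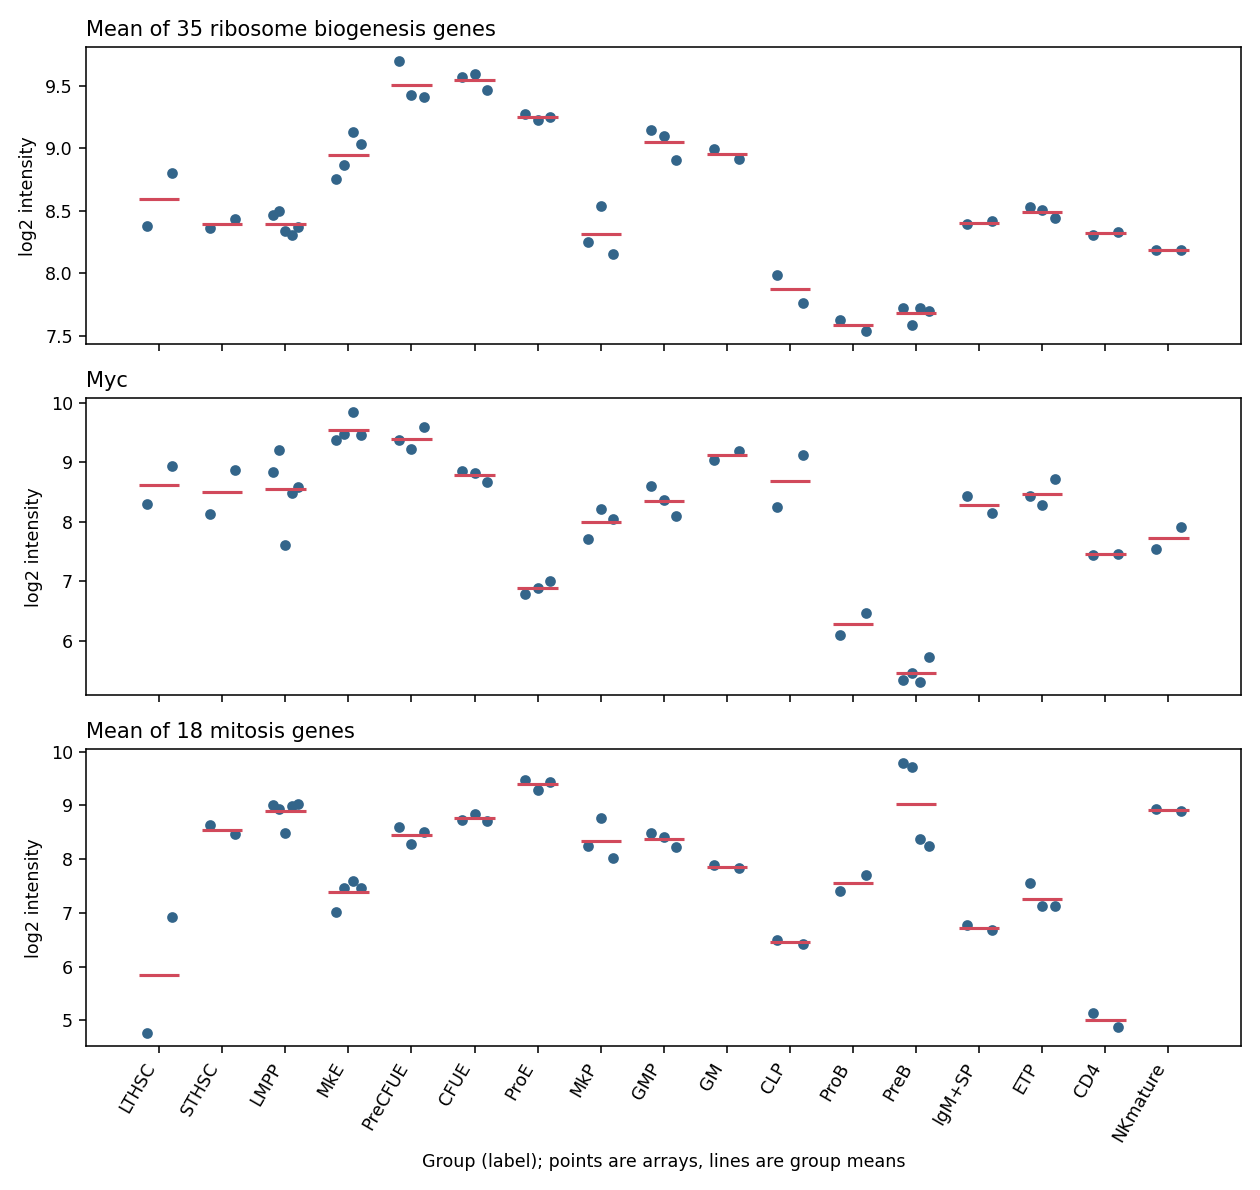
Log2 intensity on each array (points, with group means as lines) of the mean of the 35 ribosome biogenesis genes, of Myc and of the mean of 18 mitosis genes. ProE is low for Myc and high for the other measures, and PreB is low for Myc and for the 35 genes but high for mitosis genes.

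The mean of the 35 genes correlated with Myc over the 17 group means, with Pearson's r = 0.594 and Spearman's rho = 0.569. The groups share the series' arrays and their scaling, so this is a description, with no test. Without PreB and ProB, the groups farthest from the median Myc level, r was 0.267 and rho 0.375, so the relation rested on those groups. CLP lay below the trend, with Myc at 8.68 ± 0.62 (SD, n = 2) and the 35 genes at 7.87. Of the 17 groups, CLP also had the lowest median over all genes tested (5.53). ProE lay above the trend, with Myc at 6.89 ± 0.11 (n = 3) and the 35 genes at 9.25. Over the 47 arrays r was 0.603, and over the arrays' deviations from their group means it was 0.319. By the class of Xist and Eif2s3y, r was 0.868 over the 21 arrays with only Xist, 0.121 over the 19 with only Eif2s3y and 0.612 over the 7 with both. The classes differ in the populations they hold. The ProE and CLP arrays are of the Eif2s3y class, and the other erythroid arrays, MkE and ProB carry only Xist. Class and population cannot be told apart in these values of r.

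**Figure D4:**
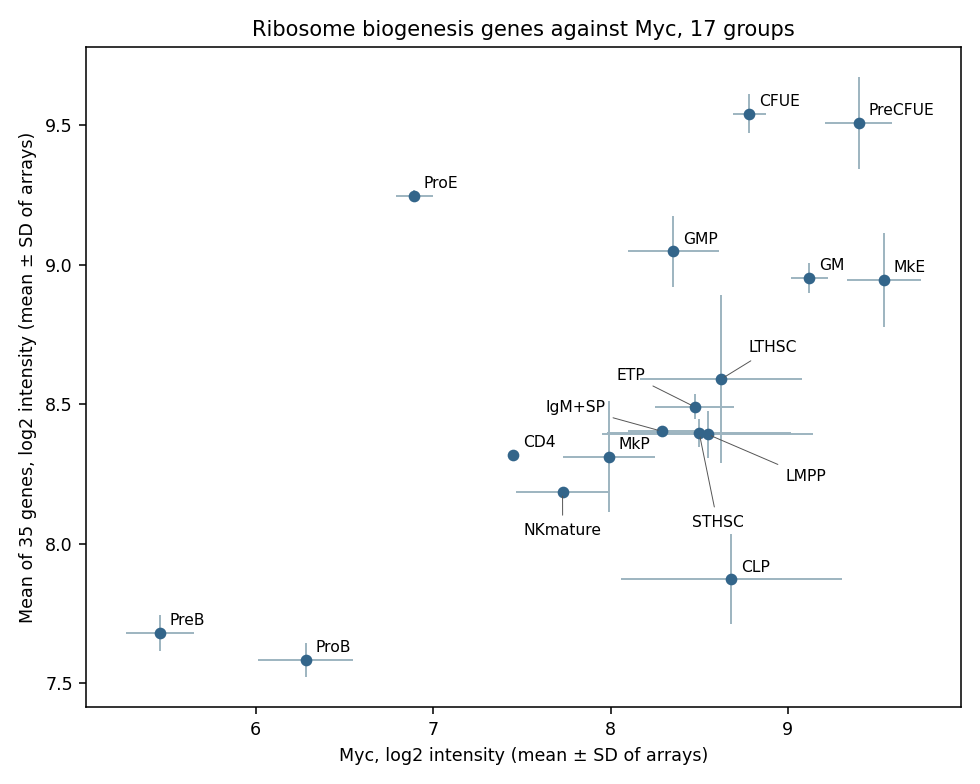
Mean of the 35 ribosome biogenesis genes against Myc in the 17 groups, both as log2 intensity, with the mean of each group's arrays as a point and their SD as lines. PreB and ProB lie at the lower left, ProE lies above the other groups of low Myc, and CLP lies below the groups of like Myc.

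Gene by gene, the correlation with Myc over the group means had a median of 0.48 over the 35 genes and 0.03 over all genes tested. It exceeded 0.5 for 16 of the 35 (45.7%) and for 4.75% of all genes tested. The highest were Mybbp1a (0.834) and Rrp1b (0.827), followed by Dkc1 (0.706) and Gnl3 (0.704). Those near or below 0 were Bop1 (0.00) and Pes1 (-0.18). The 6 genes with an E-box in the window had a median of 0.582, with a range from -0.178 to 0.834. The other 24 with both a window and a value had a median of 0.465, with a range from 0.177 to 0.827, so the ranges overlapped. Pes1 carries an E-box 3 bases into its transcript (printed above) and had the lowest correlation of the set.

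Other measures that could move with the genes were set beside them. The mean of 18 mitosis genes correlated with the 35 genes at 0.25. PreB and CD4 show how far these came apart: the mitosis genes averaged 9.03 in PreB and 5.01 in CD4, where the 35 genes averaged 7.68 and 8.32. The PreB arrays with only Xist read 9.79 and 9.72 for mitosis and those with only Eif2s3y 8.37 and 8.24, while the 35 genes read 7.72, 7.58, 7.72 and 7.69 on the 4 arrays. A mean of 47 ribosomal protein genes, the products that are assembled, correlated at 0.465. Genes of the immediate early response, which rise when cells are handled, correlated at -0.586, and the median intensity of the array at -0.568. The part of these measures in the order of groups was not tested.

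The 10 comparisons between chosen pairs of populations tested each gene with limma. Not all pairs are direct neighbours. PreB was set against CLP and not ProB, because the ProB arrays stood apart from their label in part. Called genes differed at least 2-fold with an adjusted p (Benjamini-Hochberg, over all 13949 genes) under 0.05. Shares of all genes, in percent, are of such calls. For the counts at an unadjusted p no share of all genes was taken, so they have nothing to be set against. Differences are given as the first group minus the second on the log2 scale. Comparisons that share a group (MkE, LMPP, STHSC, GMP or PreB) share its arrays. Overlap of arrays between groups was counted for the 35 genes only, with no share of all genes. Between LTHSC and STHSC, where 0 of the 35 were called, 16 did not overlap.

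**Figure D5:**
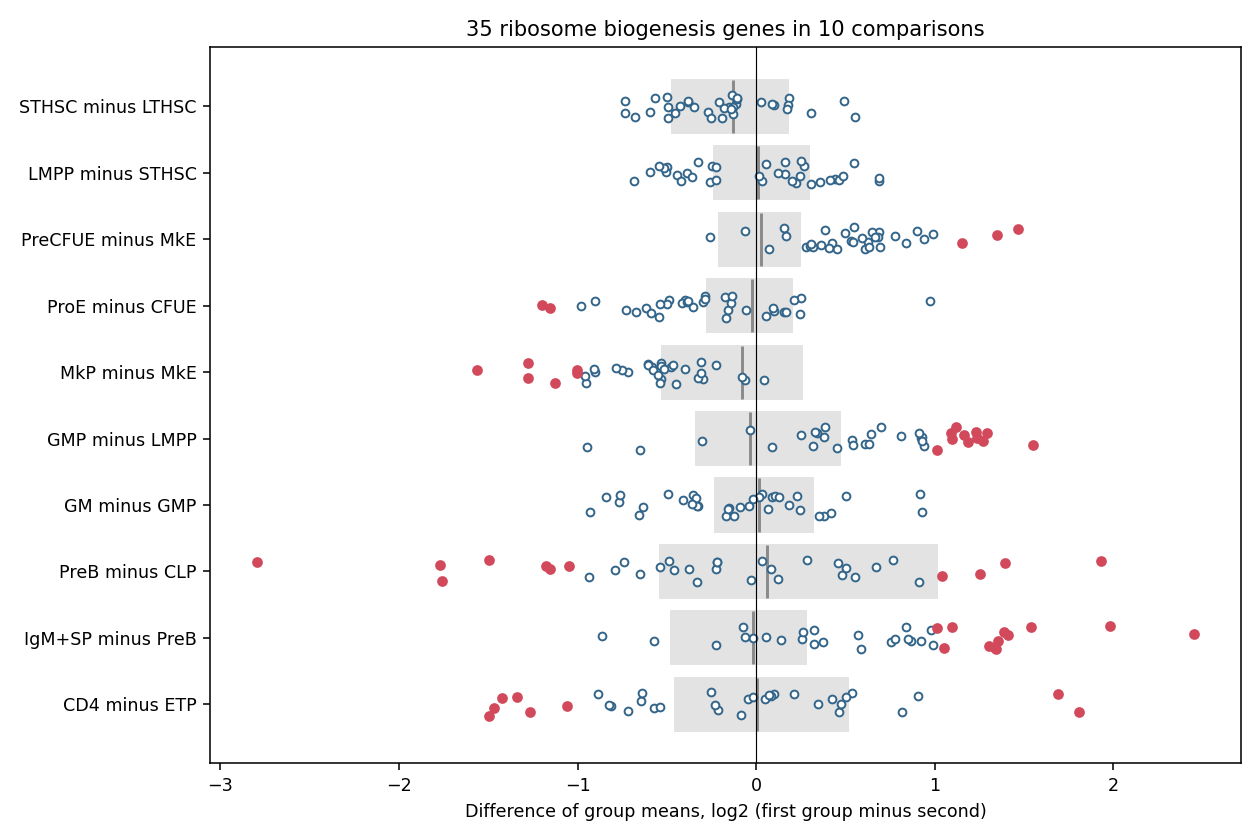
Differences of group means (log2, first group minus second) of the 35 genes in the 10 comparisons, filled red where called and open where not. Grey bars span the interquartile range of all 13949 genes with their median as a line, and the 35 genes lie mostly to the right of it in PreCFUE minus MkE, GMP minus LMPP and IgM+SP minus PreB, and to the left in MkP minus MkE.

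Between MkE and PreCFUE, at the start of the erythroid path, 33 of the 35 genes had higher means in PreCFUE, with a median difference of 0.55 (0.03 over all genes). Called higher were 3 (2.87% of all genes were) and called lower 0 (4.44% of all). With limma at an unadjusted p under 0.05 the counts were 21 higher and 0 lower, with no share of all genes to set them against. Rrp12, an export factor of small subunit precursors, read 5.69, 5.70, 6.30 and 5.96 in MkE and 7.47, 7.32 and 7.34 in PreCFUE, a difference of 1.46 ± 0.27 (SE), adjusted p = 0.000109. Noc4l, given above, rose by 1.35 ± 0.22 (SE), adjusted p = 1.78e-05. Nolc1 read 8.52, 8.38, 9.06 and 8.71 in MkE and 10.09, 9.63 and 9.74 in PreCFUE, a rise of 1.15 ± 0.23 (SE), adjusted p = 0.000321. None of the 3 overlapped between the groups, where 20 of the 35 genes in all did not, and no share of all genes was counted. Without the third MkE array the count of called genes was 6. The late neutrophil mean was lower in PreCFUE (5.32, 5.82 and 4.93) than on every MkE array (given above), and its part in the result was not tested. Myc was not called (-0.14 ± 0.24, adjusted p = 0.833), and Mycn fell by 4.67 ± 0.33 (adjusted p = 1.63e-13).

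Between CFUE and ProE most means were lower in ProE (26 of 35), with a median of -0.30 against -0.02 over all genes. Called were 2 lower (2.84% of all genes) and 0 higher (1.78%). At an unadjusted p under 0.05 in limma 11 were lower and 1 higher, with no share of all genes to set them against. Rrp9 read 8.31, 8.61 and 8.32 in CFUE and 7.22, 7.24 and 7.18 in ProE, a difference of -1.20 ± 0.26 (SE), adjusted p = 0.00183. Rrp12 read 7.20, 7.30 and 7.09 in CFUE and 6.35, 5.71 and 6.06 in ProE, a difference of -1.16 ± 0.29 (SE), adjusted p = 0.00634. Its call was lost without the second ProE array (adjusted p = 0.0582), and without the third the count rose to 4. Myc fell by 1.89 ± 0.26 (adjusted p = 2.82e-06) in the same comparison. The CFUE arrays carry only Xist and the ProE arrays only Eif2s3y, so that this class and the group cannot be told apart.

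Between MkE and MkP, 34 of the 35 genes had lower means in MkP, the median being -0.55 against -0.08 over all genes. Called lower were 6 (8.55% of all genes) and higher 0 (2.96%). At an unadjusted p under 0.05 in limma 24 were lower and 0 higher, with no share of all genes to set them against. Wdr12 fell most, with -1.56 ± 0.20 (SE), adjusted p = 1.08e-07. Nop58 (-1.28), Nip7 (-1.28), Nop16 (-1.12), Ncl (-1.005) and Gnl3 (-1.001) also fell. Wdr12 read 9.10, 9.40, 9.27 and 9.79 in MkE and 7.85, 8.21 and 7.43 in MkP, with no overlap. Ncl and Gnl3 lay just past the fold that a call asks for. Gnl3 lost its call without MkE array 2, 3 or 4 or MkP array 1 or 3, and Ncl without the same arrays other than MkE array 2. Nop16 lost its call without MkE array 4 or MkP array 1, and the count was then 3. Other probe sets of Ncl and Nip7 reached 0.13 and 0.42 in the other direction. With quantile normalization repeated, 1 gene was called and the calls among all genes turned from 413 higher and 1193 lower to 727 and 639. With each array centred on its median, 10 were called. The median of all genes moved to 0.05 and -0.19 under these scalings, and that of the 35 genes stayed below it. The late neutrophil mean given above was higher on MkE arrays 2 to 4 than on MkP arrays 2 and 3, and on MkE array 1 and MkP array 1 it was higher still. Its part in the result was not tested. Myc fell by 1.55 ± 0.24 (adjusted p = 7.96e-06), while Mycn was 0.94 ± 0.33 higher (adjusted p = 0.028).

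Between LMPP and GMP, on the myeloid path, 31 of the 35 genes had higher means in GMP, with a median of 0.70 against -0.03 over all genes. Called higher were 11 (10.6% of all genes) and lower 0 (6.24%). At an unadjusted p under 0.05 in limma 24 were higher and 1 lower, with no share of all genes to set them against. The small subunit factors led with 5 of 9: Bysl, Heatr1, Tsr1, Wdr75 and Noc4l. Bysl read 6.08, 6.25, 6.64, 6.53 and 6.54 in LMPP and 8.05, 7.97 and 7.86 in GMP, a rise of 1.55 ± 0.20 (SE), adjusted p = 1.15e-07. Gtpbp4 rose by 1.29 ± 0.25 (SE), adjusted p = 9.83e-05, Rrs1 by 1.27, Heatr1 by 1.24, Gar1 by 1.23 and Tsr1 by 1.19. None of the 11 overlapped between the groups, where 21 of the 35 genes in all did not, and no share of all genes was counted. Gnl3 lost its call without GMP array 1 or LMPP array 3, and Polr1a without LMPP array 4. Other probe sets of Polr1a and Noc4l went the other way (-0.61 and -0.67). With only the LMPP arrays of the Eif2s3y class, the class of GMP, 9 of the 11 remained called and Gar1 and Gnl3 did not. The fit then called 13 in all, 11 higher and 2 lower. The 4 that were not called over all arrays were Wdr43 (1.31) and Rrp1b (1.28), higher in GMP, and Noc2l (-1.497) and Nop58 (-1.38), lower in GMP, and they are named after their values were seen. With the class as a block the counts were 12 higher and 2 lower. Quantile normalization again gave 5 higher and 1 lower, with 1116 and 1080 among all genes in place of 1480 and 870, and the mean of all probe sets gave 5 called in all. Myc was not called (-0.19 ± 0.23, adjusted p = 0.553). Late neutrophil transcripts were at 7.06 to 7.44 in GMP and on LMPP at 3.83 to 3.97 for arrays 1 to 3 and 7.76 and 7.87 for the others. The immediate early mean was 5.54 to 5.69 in GMP. It read 10.42 and 10.19 on the LMPP arrays of the Eif2s3y class and 9.52, 4.76 and 4.73 on the other LMPP arrays. Class-matched arrays thus differed more in this measure than LMPP arrays 4 and 5 did. The part of both measures in the result was not tested.

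Between CLP and PreB the genes moved in both directions, with a median of -0.22 against 0.06 over all genes. Called higher were 4 (25% of all genes) and lower 7 (10.5% of all genes). The largest fall was that of Rrp1b, given above, with -2.79 ± 0.24 (SE), adjusted p = 6.35e-12, followed by Mybbp1a (-1.77), Tsr1 (-1.76), Gnl3 (-1.495), Polr1a (-1.18) and Noc2l (-1.16). Mybbp1a read 10.60 and 10.68 in CLP and 8.44, 8.85, 9.20 and 8.997 in PreB. Polr1b was the seventh (-1.05). The large subunit factors Nip7 (1.93), Pes1 (1.40) and Gtpbp4 (1.25) and the nucleolar Ncl (1.04) rose. Nip7 read 6.34 and 6.27 in CLP and 7.98, 8.34, 8.59 and 8.01 in PreB, but its other probe set differed by -0.90. Without the second CLP array the calls of Polr1a, Polr1b, Ncl, Pes1 and Gtpbp4 were lost. Those of Polr1b and Ncl were also lost without PreB array 1 or 3, and that of Polr1a without PreB array 3. Against only the PreB arrays of the Eif2s3y class, the class of CLP, 9 of the 11 remained called and Tsr1 (-0.92) and Polr1b (-0.86) did not. Nop2 (-1.26), named after its value was seen, was called in addition. Other probe sets of Ncl and Tsr1 reached -1.28 and 0.27, against the direction called. The direction of the whole set depended on scaling: quantile normalization gave 1 higher and 16 lower with a median of -0.77, and centring on the array median gave 6 higher and 4 lower with a median of 0.02. Over all genes these scalings moved the median from 0.06 to -0.10 and 0.30, and the calls from 3489 higher and 1461 lower to 2271 and 2337, and 4254 and 890. The CLP arrays had the highest median intensity (16.9 on both, against 13.8 to 15.8 on all others) and the lowest upper quartiles. Myc fell by 3.22 ± 0.28 (adjusted p = 4.2e-12). Ebf1, the B cell regulator, stood at 10.60 in CLP and 11.58 in PreB. The late neutrophil mean was 4.52 and 5.07 in CLP, so that 1 PreB array lay below the CLP arrays and 3 above. The NK cell mean was 5.09 and 4.83 in CLP and 3.40, 3.51, 6.51 and 6.52 in PreB. The mean of the mitosis genes was 2.57 higher in PreB. The part of these measures in the result was not tested.

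Between PreB and IgM+SP, 29 of the 35 genes had higher means in IgM+SP, with a median of 0.84 against -0.02 over all genes. Called higher were 12 (3.4% of all genes) and lower 0 (9.43%). At an unadjusted p under 0.05 in limma 22 were higher and 2 lower, with no share of all genes to set them against. Tsr1 read 8.53, 8.45, 10.32 and 10.03 in PreB and 11.71 and 11.86 in IgM+SP, a rise of 2.45 ± 0.32 (SE), adjusted p = 6.53e-07. Gnl3 read 8.24, 8.13, 8.85 and 8.62 in PreB and 10.26 and 10.61 in IgM+SP, a rise of 1.98 ± 0.22 (SE), adjusted p = 2.12e-08. Neither overlapped between the groups. Ddx21 (1.54), Rrp1b (1.41), Wdr43 (1.39) and Gtpbp4 (1.35) followed in size, and Mybbp1a, Rrp12, Rrs1, Bysl, Gar1 and Polr1b were also called.

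For several of these the PreB arrays fell into the Xist and Eif2s3y classes. Ddx21 read 7.18, 6.96, 8.38 and 8.33, Gtpbp4 8.45, 8.20, 9.59 and 9.29, Bop1 7.999, 8.24, 5.67 and 6.57 and Rrp9 6.83, 7.10, 5.81 and 5.89, the first and second of each with only Xist and the others with only Eif2s3y. Ddx21 and Gtpbp4 were thus lower, and Bop1 and Rrp9 higher, on the arrays with only Xist. The same arrays differed in the transcripts of other cells. In the same order the late neutrophil mean read 3.75, 5.77, 9.73 and 10.43, the NK cell mean 3.40, 3.51, 6.51 and 6.52, and the B cell mean 10.20, 10.01, 8.996 and 8.98. The arrays with only Eif2s3y were thus higher for neutrophil and NK cell genes and lower for B cell and mitosis genes (given above). In PreB the class and these measures cannot be told apart, and their part in the calls was not tested. Against the PreB arrays of the Eif2s3y class alone, which is the class of IgM+SP, 7 of the 12 remained called, among them Gnl3 (1.70), Tsr1 (1.61) and Mybbp1a (1.12), and the median of the 35 was 0.69. Rrs1 (0.36, adjusted p = 0.63), Gtpbp4 (0.79, adjusted p = 0.102) and Ddx21 (0.90) were among the 5 that did not. Nolc1 (1.14) and Heatr1 (1.02), named after their values were seen, were called in addition. On the IgM+SP arrays the NK cell mean was 4.26 and 3.70 and the B cell mean 8.51 and 8.65. A fit of the compared groups alone called 2. Polr1b lost its call without either IgM+SP array or PreB array 1, 2 or 3, and Rrs1 without either IgM+SP array or PreB array 1 or 2. Gar1 lost it without IgM+SP array 1 or PreB array 2, Rrp12 without IgM+SP array 1 and Bysl without PreB array 1. The rise of Myc was 2.83 ± 0.28 (adjusted p = 1.16e-09). The mean of the mitosis genes differed by -2.31, while the late neutrophil mean stood at 9.66 to 10.33 in IgM+SP and 3.75 to 10.43 in PreB. Their part in the result was not tested. Quantile normalization gave 18 called higher and 618 higher and 947 lower among all genes, in place of 474 and 1315.

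Between ETP and CD4 the set split, with a median of -0.09 against 0.00 over all genes. Called were 6 lower (12.5% of all genes) and 2 higher (13.9%). Of the box H/ACA proteins, Gar1 read 10.23, 10.28 and 10.27 in ETP and 8.73 and 8.79 in CD4, a difference of -1.497 ± 0.29 (SE), adjusted p = 7.15e-05, and Dkc1 differed by -1.34. Gnl3 (-1.47), Rrs1 (-1.42), Wdr43 (-1.27) and Nop56 (-1.06) also fell. Bop1 read 6.56, 6.14 and 6.71 in ETP and 8.37 and 8.18 in CD4, a rise of 1.81 ± 0.42 (SE), adjusted p = 0.000685, and Rrp9 rose by 1.69 ± 0.29 (SE), adjusted p = 1.27e-05. None of the 8 overlapped between the groups, where 25 of the 35 genes in all did not, and no share of all genes was counted. The call of Nop56 was lost without the first CD4 or the second ETP array. Other probe sets of Nop56, Wdr43 and Bop1 differed by 0.43, 0.21 and 0.16. The CD4 arrays carry only Xist and no ETP array is of that class, so class and group cannot be told apart. Myc fell by 1.02 ± 0.29 (adjusted p = 0.00487) and the difference of Mycn was -6.67. The mean of the mitosis genes differed by -2.26, and the red cell gene Alas2 stood at 8.42 in CD4 and 3.08 in ETP. The part of these measures was not tested.

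Among the early groups no gene of the set was called. For the unadjusted counts given here no share of all genes was taken. Between LTHSC and STHSC limma called 0 higher (2.06% of all genes) and 0 lower (4.75%), with 0 higher and 4 lower at an unadjusted p under 0.05. The median was -0.18 against -0.13 over all genes, and it turned to 0.05 without the second LTHSC array and to 0.04 with quantile normalization repeated, which also turned the calls among all genes from 287 higher and 663 lower to 366 and 454. The mean of the mitosis genes was 2.70 higher in STHSC, and its part was not tested. Between STHSC and LMPP limma called 0 higher (3.92%) and 0 lower (1.5%), with 2 higher and 3 lower at an unadjusted p under 0.05 and a median of 0.06. Between GMP and GM it called 0 higher (5%) and 0 lower (2.95%), with 2 higher and 4 lower unadjusted and a median of -0.09. Without the third GMP array 1 was called. The GM arrays carry only Xist and the GMP arrays only Eif2s3y, so class and group cannot be told apart there. The late neutrophil mean on the GM arrays (given above) lay below and above the range of GMP. Mycn was 2.91 ± 0.39 higher in GM than in GMP (limma, adjusted p = 9.65e-07).

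Over the 10 comparisons Gnl3 was called most often, 2 times higher and 3 times lower, and Gtpbp4 3 times, each time higher. Ebna1bp2, Nhp2, Nle1, Nop14, Nop2 and Npm1 were not called in any of them over all arrays.

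The rest of the pathway was taken from a list of 94 further biogenesis factors, of which 91 were measured and tested. Their mean correlated with that of the 35 genes at 0.917 over the group means, and was highest in CFUE (8.65) and lowest in CLP (7.03). In GMP against LMPP 22 of the 91 were called higher (10.6% of all genes) and 1 lower (6.24%). The largest were Taf1d (2.495), a factor of the RNA polymerase I promoter complex, Utp6 (2.10), Nol10 (1.77) and Ddx52 (1.72). In MkP against MkE 0 were higher (2.96% of all genes) and 12 lower (8.55%), led by Nsa2 (-1.64), Imp3 (-1.63), Nmd3 (-1.39) and Utp14a (-1.38). In PreCFUE against MkE 7 were higher (2.87% of all genes) and 1 lower (4.44%), the largest being Dhx37 (1.63). These followed the direction of the 35 genes.

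The medians of the list and of the set had opposite signs in PreB against CLP, CD4 against ETP and LMPP against STHSC. They were 0.09 and -0.09 in CD4 against ETP and -0.01 and 0.06 in LMPP against STHSC. In PreB against CLP 32 of the 91 were higher (25% of all genes) and 7 lower (10.5%). Rpf1 (3.63), Pno1 (2.83), Ddx52 (2.38) and Emg1 (2.28) led. The median was 0.57 where that of the 35 genes was -0.22. In IgM+SP against PreB 10 were higher (3.4% of all genes) and 2 lower (9.43%). Ruvbl2 (-1.52), Mdn1 (1.47), Emg1 (-1.43) and Gnl2 (1.39) were the largest. In CD4 against ETP 21 were higher (13.9% of all genes) and 6 lower (12.5%). Taf1d (-2.34), Ddx56 (2.02), Naf1 (7.11 in CD4 and 9.11 in ETP) and Urb2 (-1.86) were the largest. The difference between list and set was not tested. In ProE against CFUE 1 was higher (Taf1d, 1.19), as were 1.78% of all genes, and 1 lower (Urb1, -1.06), as were 2.84%. In GM against GMP 3 were higher (5% of all genes) and 3 lower (2.95%). In LMPP against STHSC 4 were higher (3.92%), and in STHSC against LTHSC 2 were lower (4.75%). The largest in the latter comparisons, from GM against GMP on, were Taf1d (-1.75), Ddx52 (1.18) and Mdn1 (-1.25). An E-box was present in the windows of 19 of the 78 of these genes that have one (24.4%). The median correlation of the 91 with Myc was 0.228.

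Outside the set, 12965 genes were ranked by the correlation of their group means with the mean of the 35. The highest were Utp4 (0.965), itself in the list above, Ccdc137 (0.957), the mitochondrial chaperonin Hspd1 (0.952), the RNA methyltransferase Nsun2 (0.949), Lap3 (0.936), the transfer RNA methyltransferase Mettl1 (0.934), the RNA polymerase III subunit Polr3g (0.931) and the mitochondrial Sod2 (0.928). Hspd1 ran from 9.47 in ProB to 12.39 in CFUE, and Mettl1 from 5.37 in PreB to 8.33 in CFUE. Of the 100 highest, 14 were among the 91 other biogenesis factors. The lowest were Trp53i11 (-0.881), Tfeb (-0.860), a regulator of lysosome genes, Kif3c (-0.858) and Pqlc3 (-0.854), all with their highest level in ProB.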

How the data were processed

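Gene expression was measured on 47 Affymetrix arrays of 17 labelled bone marrow populations. The deposited values are probe set intensities on a linear scale made by the authors with RMA, as the series' design text states. Which software ran it, and how arrays were scaled, is not given in the sources used. The values were taken to log2 with no pseudocount. Of 45101 probe sets, 34958 carry 1 gene symbol in the platform annotation, 932 carry several and 9211 are not listed. The brightest probe set of each symbol on average stood for the gene. A gene was tested where the mean of 1 or more groups exceeded 3.89, the overall median on the log2 scale. Group means were fitted over all 47 arrays with limma 3.58.1 in R 4.3.3 (30 residual degrees of freedom), with Benjamini-Hochberg adjustment over 13949 genes and two-sided tests. The fit was tested on simulated data. Replicates are labelled biological, and p-values rest on their spread. Precision is limited by how few arrays a group has.

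The members and lists were chosen with earlier results of these data known, although the rule for the 35 genes goes by name and uses no measured value. All 35 genes are given with their ranges, Myc, Mycn, the 6 widest and the 2 narrowest by array, and in each comparison the called genes in order of size, up to 6 a direction and beyond that by name. The genes most like the set are the 8 of highest and 4 of lowest correlation. The other biogenesis factors named are the largest called, up to 4 a comparison. Alternatives were the mean of all probe sets, other filters, other scalings, a floor at an intensity of 16, blocks by replicate number and by class, the compared groups alone, leaving out each array, and class-matched arrays.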

Additional observations from a re-analysis of the deposited data

Results flagged for a closer look

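Mycn on the third MkE array stood at 10.36 (log2 intensity), where the other 3 MkE arrays read 9.20 to 9.39. The gap to the nearest array was 0.838 of the group's whole range, against a critical value of 0.829 for 4 samples. The same rule was applied to 33 groups of values, and chance marks about 1 in 20 of them. Mycn is the paralog of Myc, and the cause of the high value was not tested.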

How the results depend on the processing

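With the mean of all probe sets, the genes called were 3 in MkP against MkE, 5 in GMP against LMPP, 1 in GM against GMP, 6 in PreB against CLP and 4 in CD4 against ETP. The medians were then -0.038 in STHSC against LTHSC, -0.0925 in LMPP against STHSC, 0.50 in GMP against LMPP, -0.38 in PreB against CLP and 0.65 in IgM+SP against PreB, and Ncl in PreB against CLP turned to -0.11. With quantile normalization repeated, 1 gene was called in ProE against CFUE, 1 in MkP against MkE, 6 in GMP against LMPP, 1 in GM against GMP and 17 in PreB against CLP. The medians were then 0.040 in STHSC against LTHSC, -0.21 in MkP against MkE, 0.49 in GMP against LMPP, -0.77 in PreB against CLP and 1.02 in IgM+SP against PreB, and the correlation with Myc was 0.681. With each array centred on its median, 10 were called in MkP against MkE and the median of PreB against CLP turned to 0.015. With the class as a block, the medians were 0.57 in GMP against LMPP and 0.69 in IgM+SP against PreB, and class-matched arrays (chosen after seeing the data) also gave 0.69 in the latter. The compared groups alone gave 2 calls in IgM+SP against PreB. The correlation with Myc was 0.121 over the arrays with only Eif2s3y and 0.868 over those with only Xist, classes that differ in the populations they hold. It was 0.4997 without ProB, 0.489 without PreB and 0.672 without CLP, which were chosen after seeing the data. The cause of these changes was not tested. Replicate numbers did not pair the arrays: over the comparisons with 3 pairs the correlations of same-numbered deviations ran from -0.378 to 0.208. With the replicate block 1 gene was called in GM against GMP, and the other counts stayed within 1.5 times those reported.

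Leaving out each array in turn gave, for the genes called, 0 in STHSC against LTHSC and in LMPP against STHSC, 3 to 6 in PreCFUE against MkE, 2 to 4 in ProE against CFUE, 3 to 9 in MkP against MkE, 11 to 15 in GMP against LMPP, 0 to 1 in GM against GMP, 8 to 12 in PreB against CLP, 9 to 15 in IgM+SP against PreB and 8 to 9 in CD4 against ETP. The medians ran from -0.48 to 0.052 in STHSC against LTHSC, where the sign turned without the second LTHSC array, from -0.10 to 0.12 in LMPP against STHSC and from 0.44 to 0.63 in PreCFUE against MkE. They ran from -0.36 to -0.29 in ProE against CFUE, from -0.69 to -0.51 in MkP against MkE, from 0.64 to 0.79 in GMP against LMPP and from -0.17 to -0.05 in GM against GMP. They ran from -0.33 to -0.10 in PreB against CLP, from 0.70 to 0.86 in IgM+SP against PreB and from -0.22 to -0.090 in CD4 against ETP, and the correlation with Myc from 0.536 to 0.640. Myc had a single probe set, so no other could be tried. Of the alternatives for single called genes, 489 kept direction and call, 83 lost the call and 1 reversed. The alternatives weigh unequally in this tally. Each other filter and the floor kept all 53 calls, which such bright genes could hardly lose. The mean of all probe sets kept 29, lost 23 and reversed 1. Leaving out each array enters only by the lowest and highest value of each call.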
